A study of Mus musculus with 15 samples.

Results

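Antigen recognition by a T cell is read out by a set of proteins that runs from the invariant chains of the T cell receptor (TCR) to the NFAT transcription factors. The 48 genes described here encode such components. They were taken by symbol from a given list of TCR signalling genes, and all 48 were found among the 17594 genes of the expression table and had enough reads to be tested. RNA-seq libraries had been made from regulatory T cells (Treg, the CD4 lineage defined by Foxp3, its transcription factor) and from the conventional kind (Tconv) sorted from mouse spleen, on the C57BL/6 background. The 4 groups were Treg KO (n = 4) and Treg WT (n = 4), and Tconv KO (n = 4) and Tconv WT (n = 3). KO animals carried a conditional knockout of Hpgd, whose enzyme inactivates prostaglandin E2, together with Foxp3-Cre-YFP, a driver that confines recombination to cells expressing Foxp3. WT animals are labelled wild-type, and the sources used here do not say whether they carried the driver, nor do they give age, pooling or the sort markers. The genotype comparison in Treg asked what loss of Hpgd changes in the cells that delete it, and the same comparison in Tconv asked it of cells that should not.

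When a peptide is recognised, the kinase Lck, brought in by the coreceptor CD4, phosphorylates the CD3 and zeta chains, and Zap70 binds them and phosphorylates the scaffold proteins Lat and Lcp2 (SLP-76). On these scaffolds assemble the enzymes that release calcium, produce diacylglycerol, activate Ras and the NF-kappaB pathway and rearrange actin. Phosphatases, ubiquitin ligases, the kinase Csk and the diacylglycerol kinases hold the cascade down. Treg need TCR signals for their development and suppressive function, and are known to answer them with weaker calcium and cytokine responses than Tconv.

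The 250 bases before the start sites of 6 members are shown: Ptpn22, Lat and Zap70, which passed between the genotypes in Treg, and 3 neighbouring CD3 genes of which 1 passed. Cd3g, Cd3d and Cd3e lie beside each other on chromosome 9, with start sites 1355 bases (Cd3g to Cd3d) and 27825 bases (Cd3d to Cd3e) apart, and Cd3g was the 1 that passed. Ptpn22 had the largest rise among the members, Lat the largest fall that passed, and Zap70 the next. The sequences are from RefSeq (GRCm38.p6), 5′ to 3′ on the strand of the gene, in lower case with each CG dinucleotide in capitals. They lie at chr9:44980432-44980681, minus strand (Cd3g), chr9:44981536-44981785, plus strand (Cd3d), chr9:45009612-45009861, minus strand (Cd3e), chr3:103859545-103859794, plus strand (Ptpn22), chr7:126369569-126369818, minus strand (Lat) and chr1:36761548-36761797, plus strand (Zap70).
Cd3g: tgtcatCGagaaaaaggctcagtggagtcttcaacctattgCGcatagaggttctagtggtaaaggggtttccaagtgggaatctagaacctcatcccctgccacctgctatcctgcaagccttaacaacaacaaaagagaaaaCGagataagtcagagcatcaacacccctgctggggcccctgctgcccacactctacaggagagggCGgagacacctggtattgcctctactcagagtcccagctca
Cd3d: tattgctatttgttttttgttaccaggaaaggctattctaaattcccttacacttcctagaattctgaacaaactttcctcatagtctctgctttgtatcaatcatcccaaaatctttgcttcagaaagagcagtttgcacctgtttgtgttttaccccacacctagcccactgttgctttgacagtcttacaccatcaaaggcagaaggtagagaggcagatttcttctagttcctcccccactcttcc
Cd3e: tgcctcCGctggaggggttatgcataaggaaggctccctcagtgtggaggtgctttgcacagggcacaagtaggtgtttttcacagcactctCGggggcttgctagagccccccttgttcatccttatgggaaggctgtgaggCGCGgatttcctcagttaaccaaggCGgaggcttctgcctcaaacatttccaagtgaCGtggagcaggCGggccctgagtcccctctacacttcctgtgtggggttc
Ptpn22: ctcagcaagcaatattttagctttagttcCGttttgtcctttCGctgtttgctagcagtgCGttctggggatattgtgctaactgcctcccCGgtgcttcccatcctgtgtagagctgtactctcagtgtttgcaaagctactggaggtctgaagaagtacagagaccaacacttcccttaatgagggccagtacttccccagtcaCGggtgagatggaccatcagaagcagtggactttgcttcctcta
Lat: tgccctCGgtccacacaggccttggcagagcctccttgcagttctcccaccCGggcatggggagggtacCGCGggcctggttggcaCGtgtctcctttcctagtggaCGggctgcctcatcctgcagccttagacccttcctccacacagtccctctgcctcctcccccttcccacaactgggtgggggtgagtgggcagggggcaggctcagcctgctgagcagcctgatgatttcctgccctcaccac
Zap70: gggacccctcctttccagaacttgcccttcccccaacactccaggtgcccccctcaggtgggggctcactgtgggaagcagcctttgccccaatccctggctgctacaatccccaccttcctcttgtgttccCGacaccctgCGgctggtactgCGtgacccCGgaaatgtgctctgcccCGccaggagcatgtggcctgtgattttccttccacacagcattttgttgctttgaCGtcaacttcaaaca
The Cd3d stretch held 0 CG dinucleotides and 41.2% G or C, whereas that of Cd3g held 4 and that of Cd3e 7. Those of Lat and Zap70 held 6 each and that of Ptpn22 held 5, and the G or C content was highest in Lat, at 65.2%. A RefSeq promoter was at hand for 39 members. The entry nearest the annotated gene start was taken, which lay 50889 bases away for Grap2, 12301 for Dgkz and 8669 for Grb2. All promoters, used for comparison, were not limited to genes tested here. In the 250 bases before the start, searched on both strands, the GC box GGGCGG occurred in 19 of the 39, against 32.7% of all 32851 promoters, and the TATA box TATAAA in 3 against 12.4%. The RUNX motif TGTGGT occurred in 4 against 14.05%, and the ETS motif CCGGAAG in 0 against 6.91%. These matches are descriptions of letters, not of bound sites.

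Libraries held 2.64 to 4.71 M reads in Treg KO and 6.43 to 10.0 M reads in Treg WT, and 2.95 to 10.3 M reads in Tconv KO and 6.60 to 11.1 M reads in Tconv WT. Levels are given as normalized read counts, in which the reads of each gene are divided by 1 factor per library. Foxp3 averaged 4046 ± 541 in Treg KO and 4502 ± 369 in Treg WT, against 40.8 ± 22.5 in Tconv KO and 17.1 ± 3.14 in Tconv WT. The summed level of 6 B cell markers ranged from 128 to 172 in Treg KO and 76.2 to 107 in Treg WT, and from 10.3 to 22.7 in Tconv KO and 7.91 to 11.8 in Tconv WT, most of it Cd79b in Treg, with Ms4a1 at a mean of 2.34 or less in every group. That of 4 NK markers ranged from 0 to 15.1 in Treg KO and 4.83 to 7.54 in Treg WT, and from 45.4 to 152 in Tconv KO and 85.9 to 168 in Tconv WT, nearly all Klrb1c and Klrd1, with Ncr1 at a mean of 0.176 or less. Cd8b1 averaged 73.3 in Treg KO and 60.8 in Treg WT, and 67.4 in Tconv KO and 59.4 in Tconv WT, while Cd8a averaged 1.62 or less in every group. The part of these markers in the genotype results was not tested. Hpgd had no more than 0.685 in any library, WT included, so its level checks no label. Xist was at 12989 or above in Treg KO and 8644 or above in Tconv KO, and at 5.52 or below in every WT library, while the Y-linked Ddx3y was at 0 in all 8 KO libraries. Sample numbers ran from 574 to 581 in KO and from 483 to 490 in WT. Genotype therefore cannot be told apart from sex or from the run of sample numbers, in either cell type. In Treg every KO library also held fewer reads than any WT library, so depth ran with genotype there.

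KO libraries varied more in these genes than WT libraries did. The SD of a library's deviation from its group mean, over the 48 members on the log2 scale, was 0.081 to 0.27 in the 8 KO libraries and 0.057 to 0.089 in the 7 WT libraries. The widest were Tconv KO replicate 1 (0.27), Treg KO replicate 3 (0.25), Treg KO replicate 1 (0.24) and Tconv KO replicate 4 (0.22). Replicate 1 of both KO groups deviated in the same members, with -0.91 and -0.76 for the Tec family kinase Txk and -0.35 and -0.51 for the adaptor Grap2, in the Treg and the Tconv library. In the same 2 libraries the protease Malt1 deviated by 0.38 and 0.42, and Nfatc1 by 0.31 and 0.58. Replicate 4 deviated the other way, with 0.70 and 0.50 for Txk. Treg KO replicate 3 was low in Orai1 (-0.76), Zap70 (-0.52), Nck2 (-0.49), Csk (-0.43) and Dgkz (-0.35). Between Treg and Tconv KO libraries of neighbouring sample numbers Pearson's r of these deviations was 0.78, 0.41, 0.38 and 0.78 over the 48 genes, which share library and depth, and between the other KO pairs it ran from -0.79 to 0.48. Between neighbouring WT libraries r was 0.33, 0.60 and -0.20, and between the other WT pairs -0.47 to 0.20. Each deviation is from the mean of its own group, so a low library pushes the others of the group up. For the same reason a high r between neighbours pushes r of the other pairs down. Tconv KO replicate 1 also held the highest level of the Treg transcription factor Ikzf2 among the Tconv KO libraries, 3195, against 366 in the lowest. The sources used here do not say whether neighbouring numbers mark 1 animal, and counts without both KO libraries of replicate 1 and without Treg KO replicate 3 are given beside the results.

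**Figure D1:**
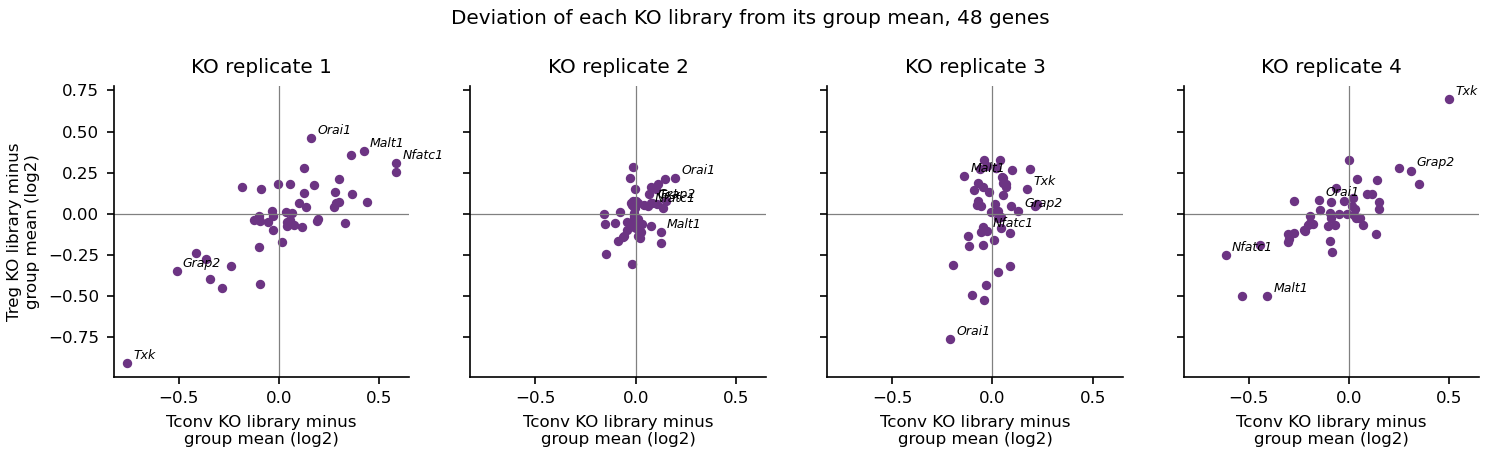
Each point is 1 of the 48 genes. The vertical axis is its log2 deviation in a Treg KO library from the Treg KO mean, and the horizontal axis is that in the Tconv KO library of the neighbouring sample number, by KO replicate. In replicates 1 and 4 the points run along the diagonal with Txk at opposite ends, and in replicates 2 and 3 they follow it less closely.

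Treg KO differed from Treg WT in single members of the cascade, some higher and some lower. The phosphatase Ptpn22, the coreceptor Cd4, the calcium channel Itpr1 and the receptor chain Cd3g rose, and the scaffold Lat, the kinase Zap70 and the diacylglycerol kinases Dgka and Dgkz fell. Of the 48 members 16 passed (adjusted p under 0.05 by limma, over all 11314 genes tested), 8 higher (against 10.4% of all genes) and 8 lower (against 11.1%), with a median log2 fold change of 0.00030 over the members and -0.00031 over all genes. Those 16 are 33.3% of the members, and 21.5% of all tested genes passed. In these bulk samples fewer cells with a transcript and less of it per cell cannot be told apart. Without both KO libraries of replicate 1, an alternative added after seeing the data, 13 passed, 8 higher and 5 lower, and with quantile normalization 11 did, 7 higher and 4 lower. The count was 7 with the GC trend removed, where 13.3% of all genes passed, 7 without Treg WT replicate 1, 8 without Treg WT replicate 4, 9 without Treg KO replicate 1, 9 without Treg KO replicate 3 and 10 without Treg WT replicate 2. Only Ptpn22, Cd4, Itpr1 and Lat passed under each of the 13 other settings and without each of the 15 libraries in turn.

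**Figure D2:**
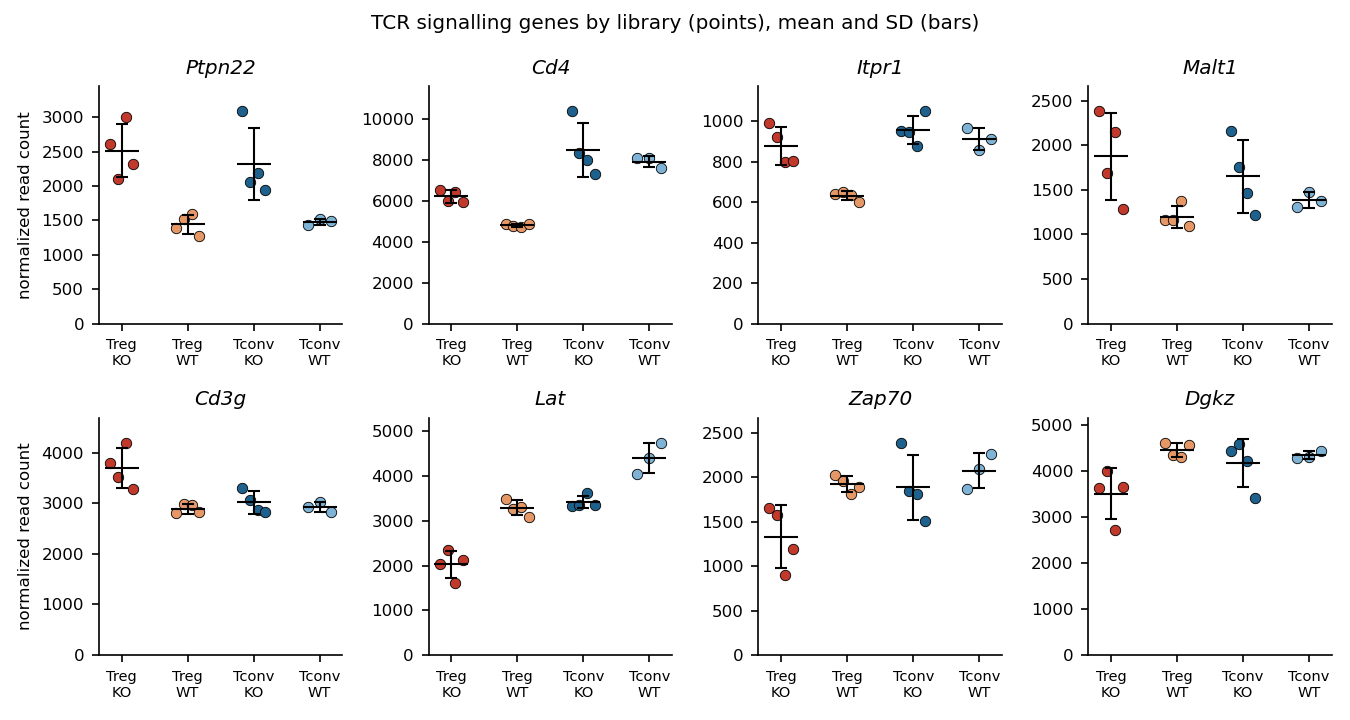
Normalized read counts of 8 members in each library (points), with group mean and SD (bars). Ptpn22, Cd4, Itpr1 and Cd3g are higher in all 4 Treg KO libraries than in any Treg WT library, and Lat, Zap70 and Dgkz are lower. For Malt1 the lowest Treg KO library, at 1291, lies below the highest Treg WT library, at 1377.

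Among the receptor chains and the coreceptor, 2 of 5 rose in Treg KO. Cd3g (ENSMUSG00000002033.14, chr9:44969572-44980431, minus strand, on GRCm38 in GENCODE vM21 as for all positions below) had 3791, 3531, 4197 and 3288 normalized counts in the 4 Treg KO libraries, against 2804, 2995, 2975 and 2822 in the 4 Treg WT libraries. The groups did not overlap, and the log2 fold change was 0.35 ± 0.076 (SE, adjusted p = 0.0063). Removing the GC trend ended the call (adjusted p = 0.057, range 9.8e-05 to 0.057 over all settings and left-out libraries). Its neighbours did not pass: Cd3d had 2035, 1918, 2465 and 1719.8 in Treg KO and 2242, 2302, 2075 and 2266 in Treg WT (-0.14 ± 0.086, adjusted p = 0.26). Cd3e had 2765, 2598, 2479.9 and 2271 in Treg KO and 2275, 2240.2, 2463 and 2360.0 in Treg WT (0.11 ± 0.096, adjusted p = 0.42), with overlapping groups for both. The zeta chain gene Cd247, whose product carries most of the phosphorylation motifs, had 1858, 1915, 2152 and 1927 in Treg KO and 1869, 1719, 1863 and 1736 in Treg WT (0.13 ± 0.063, adjusted p = 0.16). The coreceptor gene Cd4 (ENSMUSG00000023274.14, chr6:124864692-124888221, minus strand) had 6538, 5967, 6451 and 5920.3 in Treg KO, against 4853, 4758, 4706 and 4886 in Treg WT. Every Treg KO library lay above every Treg WT library, and Cd4 rose by 0.37 ± 0.089 (adjusted p = 0.0099).

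Among the 6 tyrosine kinases, Zap70 and Csk fell in Treg KO. Zap70 (ENSMUSG00000026117.10, chr1:36761798-36782818, plus strand), the kinase that docks on the phosphorylated receptor, had 1659.6, 1581, 901 and 1192 in Treg KO and 2031, 1960.1, 1818 and 1887 in Treg WT. The groups did not overlap, and Treg KO replicate 3 was lowest (-0.57 ± 0.16, adjusted p = 0.024). The call of Zap70 ended with the GC trend removed (0.26) and without a Treg WT library (replicate 1, 2 or 4) or a Treg KO library (replicate 3 or 4), reaching 0.067. Csk, which phosphorylates the inhibitory tyrosine of Lck, had 1845, 2029, 1381 and 2340.3 in Treg KO and 2561, 2273, 2382 and 2306 in Treg WT. Treg KO replicate 4 lay inside the WT range, and the call (-0.35 ± 0.11, adjusted p = 0.040) ended without the filter on low values, with quantile normalization, when Treg alone were fitted and with the GC trend removed, which turned its direction (0.075, adjusted p = 0.63), and without any single WT library of either cell type, Treg KO replicate 1 or 3 or Tconv KO replicate 3 (up to 0.11). Lck had 4483, 5454, 4311 and 5052 in Treg KO and 5814, 5001, 5250.5 and 5718 in Treg WT, and did not pass (-0.18 ± 0.084, adjusted p = 0.14). Txk had the largest coefficient of variation of all members in Treg KO, 41.5%, with 118, 232, 246 and 359.7, against 343, 279, 371 and 380.3 in Treg WT, and did not pass (-0.62 ± 0.28, adjusted p = 0.13). Fyn and Tec changed by -0.012 ± 0.10 and -0.11 ± 0.12 and did not pass.

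Of the 10 adaptors, Lat and Grb2 fell in Treg KO and Sla rose. Lat (ENSMUSG00000030742.7, chr7:126363824-126369570, minus strand), the membrane scaffold that gathers Plcg1, Grb2 and Grap2, had 2031, 2338, 1616 and 2124 in Treg KO, against 3498, 3266, 3304 and 3088 in Treg WT. The highest Treg KO library lay well below the lowest Treg WT library (-0.71 ± 0.093, adjusted p = 2.3e-04), and the adjusted p ranged over 2.4e-11 to 0.0051. Grb2, which links Lat to the Ras exchange factor Sos1, had the smallest coefficient of variation of all members in Treg KO, 0.750%, with 907, 895, 911 and 904 in Treg KO and 991, 1057, 1047 and 1079 in Treg WT. The small difference passed without overlap (-0.21 ± 0.049, adjusted p = 0.010), except with the trend on transcript length removed (0.11). Sla, the Src-like adaptor that lowers surface TCR together with Cbl, had 2572, 2274, 2715 and 2288 in Treg KO and 1921, 2113, 2084 and 1889 in Treg WT. It rose without overlap (0.30 ± 0.093, adjusted p = 0.034), and the call ended with the GC or length trend removed and without a Treg WT library (replicate 1, 3 or 4) or a Treg KO library (replicate 1 or 3), reaching an adjusted p of 0.32. The other 7 adaptors, Lcp2, Grap2, Nck1, Nck2, Pag1, Sh2d1a and Sla2, changed by between -0.12 (Nck2) and 0.12 (Sla2) and did not pass. The scaffold partner of Lat, Lcp2, had 3239, 2915, 3135 and 2648 in Treg KO and 3087, 3142, 2984 and 2872 in Treg WT (-0.021 ± 0.11, 95% interval -0.25 to 0.21).

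Of the 9 effectors that act beyond the scaffolds, Malt1 and Sos1 rose in Treg KO and Vav1 and Was fell. Malt1, the protease of the Bcl10 complex that activates NF-kappaB, had 2382, 1691, 2146 and 1291 in Treg KO and 1163, 1159, 1377 and 1096 in Treg WT. The groups overlapped through Treg KO replicate 4, with a log2 fold change of 0.61 ± 0.18 (adjusted p = 0.025). The call ended with the GC trend removed (0.055) and without a Treg WT library (replicate 1, 2 or 4) or a Treg KO library (replicate 1 or 3), reaching 0.071. Sos1 had 522, 434, 627 and 583 in Treg KO and 422, 469.7, 464 and 378 in Treg WT, with overlapping groups (0.31 ± 0.10, adjusted p = 0.040). Vav1, the exchange factor of Rac, had 1381, 1482, 1342 and 1467 in Treg KO and 1633, 1648, 1635 and 1476 in Treg WT, with overlap through 1 library of each group (-0.17 ± 0.057, adjusted p = 0.044). Was, which drives actin branching at the synapse, had 1058, 1122, 1029.9 and 1170.2 in Treg KO and 1236, 1226, 1208 and 1259 in Treg WT and did not overlap (-0.17 ± 0.057, adjusted p = 0.042). The calls of Sos1, Vav1 and Was each ended in 6 other settings, among them quantile normalization and removal of the GC trend, with adjusted p up to 0.44, 0.74 and 0.76, and Was turned to 0.040 with the GC trend removed. They also ended without replicate 1 of Treg WT and without replicate 1 or 3 of Treg KO, and each without at least 6 more libraries of the 15, with adjusted p up to 0.13, 0.11 and 0.097. Plcg1, the phospholipase that produces diacylglycerol and inositol trisphosphate, had 2307, 2504, 2357 and 2398 in Treg KO and 2555, 2645, 2755 and 2514 in Treg WT and did not pass (-0.13 ± 0.055, adjusted p = 0.10). Bcl10, Prkcq, Rasgrp1 and Vav3 did not pass either, with log2 fold changes between -0.19 (Prkcq) and 0.15 (Vav3).

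Of the 10 phosphatases, ubiquitin ligases and lipid kinases, most of which restrain the cascade, Ptpn22 rose in Treg KO and Dgka and Dgkz fell. Ptpn22 (ENSMUSG00000027843.13, chr3:103859795-103912247, plus strand), which dephosphorylates Lck and Zap70, had 2616, 2107, 3003 and 2326 in Treg KO, against 1389.8, 1524, 1587 and 1271 in Treg WT. All 4 Treg KO libraries lay above all 4 Treg WT libraries (0.79 ± 0.13, adjusted p = 0.0014, range 1.1e-06 to 0.0064). The diacylglycerol kinases convert diacylglycerol to phosphatidic acid and so end its signal. Dgka had 4669.9, 6814, 6345 and 7077 in Treg KO and 8613, 8162, 8464 and 8334 in Treg WT, without overlap and with Treg KO replicate 1 lowest (-0.45 ± 0.13, adjusted p = 0.022). Dgkz had 3629.7, 4008, 2710.4 and 3649.6 in Treg KO and 4609, 4351, 4296 and 4559.5 in Treg WT, without overlap and with Treg KO replicate 3 lowest (-0.36 ± 0.11, adjusted p = 0.029). The call of Dgka ended with the GC trend removed (0.055) and without a Treg WT library (replicate 1 or 4) or a Treg KO library (replicate 1), reaching 0.060. That of Dgkz ended with quantile normalization, when Treg alone were fitted, with the GC trend removed and without a Treg WT library (replicate 1, 2 or 4) or a Treg KO library (replicate 3), reaching 0.81. With the GC trend removed Dgkz turned to 0.035. The membrane phosphatase CD45, encoded by Ptprc, which frees Lck of its inhibitory phosphate, had 12875, 13156, 17605 and 14788 in Treg KO and 13582, 13535, 14222 and 14024 in Treg WT (0.067 ± 0.092, adjusted p = 0.63). Ptpn2 had 506, 488, 528 and 568 in Treg KO and 434, 477, 485 and 449 in Treg WT without overlap, and did not pass (0.18 ± 0.068, adjusted p = 0.073). Ptpn6, Cbl, Cblb, Ubash3a and Ubash3b did not pass, with log2 fold changes between -0.11 (Cblb) and 0.11 (Ubash3a).

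Of the 8 genes of calcium entry and NFAT, Itpr1 and Nfatc3 rose in Treg KO. Itpr1 (ENSMUSG00000030102.11, chr6:108213096-108551109, plus strand), the inositol trisphosphate receptor that releases calcium from the endoplasmic reticulum, had 991, 923, 797 and 804 in Treg KO, against 641, 652, 634 and 600.2 in Treg WT. The groups did not overlap (0.47 ± 0.078, adjusted p = 0.0014, range 6.7e-07 to 0.024). Nfatc3 had 2436, 2265, 2894 and 2398 in Treg KO and 1976, 1976, 2061 and 1944 in Treg WT, also without overlap (0.32 ± 0.087, adjusted p = 0.018). That call ended with the GC trend removed (0.085). The calcium sensor Stim1 had 696, 651, 549 and 617 in Treg KO and 649, 652, 672 and 630.3 in Treg WT and did not pass (-0.055 ± 0.072, 95% interval -0.21 to 0.098). The channel Orai1, the calcineurin subunits Ppp3ca and Ppp3cb and the factors Nfatc1 and Nfatc2 did not pass, with log2 fold changes between -0.20 (Orai1) and 0.076 (Ppp3ca).

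**Figure D3:**
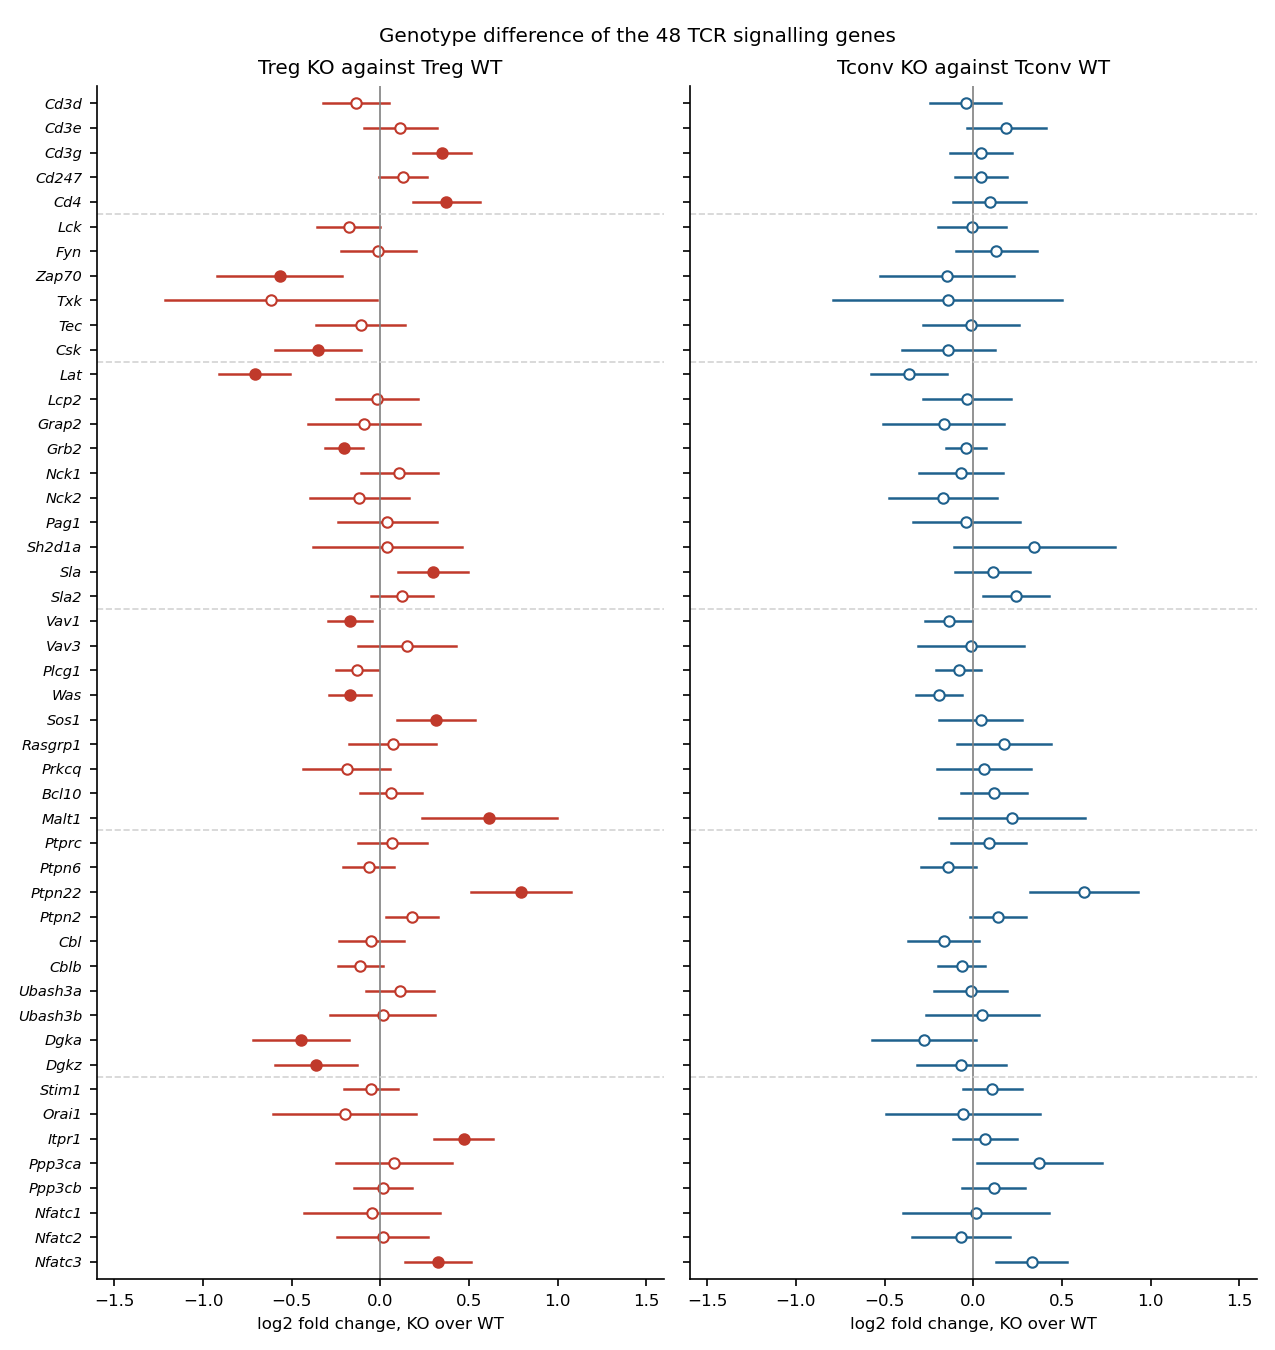
Log2 fold change (points) with its 95% interval (bars) of each member, KO over WT, in Treg (left) and Tconv (right). Filled points passed, and dashed lines part the roles from receptor chains at the top to calcium and NFAT genes at the bottom. In Treg 16 points are filled, 8 on each side of 0, and in Tconv 0 are filled, with Ptpn22 furthest to the right and Lat furthest to the left.

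The genotype difference of the members in Treg ran with the GC content of their transcripts. The 8 members that rose had a median GC content of 44.4% (35.8 to 52.0%), the 8 that fell 56.6% (51.5 to 60.1%) and the 32 that did not pass 47.6%. Pearson's r between GC content and log2 fold change was -0.59 over the 48 members and -0.35 over the 11222 tested genes with a known GC content, genes that share the same libraries. The relation was not particular to Treg: in Tconv KO against Tconv WT r was -0.53 over the members and -0.21 over all genes. The counts that follow are again those of Treg. After each library's GC trend was removed, 7 members passed, 3 higher (5.78% of all genes) and 4 lower (7.52%). Ptpn22 (0.63), Itpr1 (0.44) and Cd4 (0.42) were higher in Treg KO, and Lat (-0.41), Cblb (-0.23), Ppp3cb (-0.18) and Grb2 (-0.16) were lower. Of these, Cblb and Ppp3cb had not passed in the values as deposited. The log2 fold change of Zap70 became -0.17 and that of Malt1 0.49, and neither passed (adjusted p = 0.26 and 0.055).

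**Figure D4:**
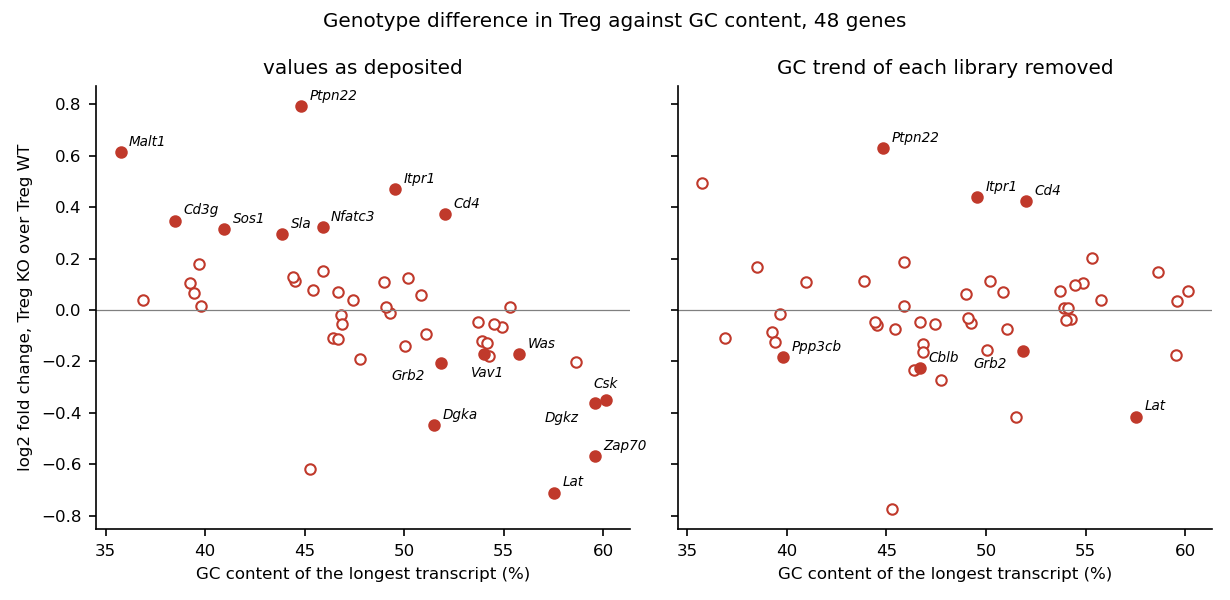
Log2 fold change, Treg KO over Treg WT, of the 48 members against the GC content of their longest transcript, in the values as deposited (left) and after the GC trend was taken out of each library (right). Filled, named points passed. On the left the filled points fall from Malt1 at 35.8% GC to Zap70 and Csk near 60%, and on the right 7 points are filled, 3 above 0 and 4 below, Cblb and Ppp3cb newly so.

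In Tconv, 0 of the 48 members passed between KO and WT by limma, where 0.681% of all genes did. An unadjusted p under 0.05 was reached by 7 members, and by 1358 of all 11314 genes tested. Without both KO libraries of replicate 1 the count of members that passed was 0, and without Treg KO replicate 3 it was 3. Ptpn22, Lat and Nfatc3 had the smallest p. Ptpn22 had 3083, 2053, 2182 and 1949 in Tconv KO, against 1425, 1520.5 and 1486 in Tconv WT, without overlap (0.62 ± 0.14, adjusted p = 0.066). It passed by edgeR (0.049) and DESeq2 (0.0030), with quantile normalization (0.046), with neighbouring sample numbers as a block (0.048), and without Treg KO replicate 3 or Tconv KO replicate 4, within a range of 0.0030 to 0.27. Lat had 3340.4, 3351, 3631 and 3361 in Tconv KO and 4057, 4402 and 4741 in Tconv WT, also without overlap (-0.36 ± 0.10, adjusted p = 0.15). Nfatc3 had 3622, 3045, 3290.3 and 2770.0 in Tconv KO and 2629, 2608 and 2335 in Tconv WT, again without overlap (0.33 ± 0.094, adjusted p = 0.16). By DESeq2 3 members passed, Ptpn22, Lat (0.020) and Nfatc3 (0.038), and by edgeR 1. Zap70 had 2388, 1844, 1814 and 1511 in Tconv KO and 1866, 2098 and 2260.3 in Tconv WT (-0.15 ± 0.18, adjusted p = 0.76), with replicate 1 of Tconv KO above every Tconv WT library. Cd4 had 10364, 8326, 8004 and 7301 in Tconv KO and 8065, 8072 and 7586 in Tconv WT (0.092 ± 0.096, adjusted p = 0.72), with overlapping groups. The receptor chains Cd3g, Cd3d, Cd3e and Cd247 changed by 0.043 ± 0.082, -0.043 ± 0.093, 0.19 ± 0.10 and 0.044 ± 0.068, and Lck by -0.0047 ± 0.090, and none of them passed.

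The genotype difference in Treg was set against that in Tconv by an interaction term. By limma 0 of the 48 members passed, where 0.15% of all genes did, while edgeR and DESeq2 called 0 each. An unadjusted p under 0.05 by limma was reached by 5 members, and by 963 of all 11314 genes tested. The 5 were Itpr1 (Treg difference minus Tconv difference 0.40 ± 0.12, 95% interval 0.16 to 0.65, adjusted p = 0.29), Cd3g (0.30 ± 0.11, adjusted p = 0.44), Lat (-0.35 ± 0.14, adjusted p = 0.50), Grb2 (-0.16 ± 0.073, adjusted p = 0.57) and Cd4 (0.28 ± 0.13, adjusted p = 0.58). For Itpr1 the Tconv groups overlapped, at 951, 947, 877 and 1049 in Tconv KO and 967, 856 and 913 in Tconv WT (0.067 ± 0.085). For Ptpn22 the interval of the interaction was -0.25 to 0.58, which includes 0. A member that passed in Treg and not in Tconv is therefore not shown to differ between them.

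The same genes were then compared between the cell types. In WT animals Treg held less transcript than Tconv of Cd4, of the zeta chain, of the Tec family kinases and of the calcium sensor Stim1, and more of the adaptor Sla and the exchange factor Vav3. Of the 48 members 16 passed (33.3%, against 18.1% of all genes), 3 higher (10.0% of all genes) and 13 lower (8.06%), with a median log2 fold change of -0.12 over the members and -0.016 over all genes. The split was 7 higher and 13 lower by edgeR and 5 higher and 11 lower with quantile normalization, and a fit of only the WT groups gave 27. Leaving out KO libraries of replicate 1, which this comparison holds only through the shared spread, gave 21, and leaving out Treg KO replicate 3 gave 20. Among the markers of other cells, Cd79b was also higher in Treg than in Tconv (3.57 ± 0.31 in KO animals, 3.84 ± 0.34 in WT animals). Klrd1 (-4.68 ± 0.43 in KO, -5.18 ± 0.46 in WT), Klrb1c (-3.32 ± 0.63 in KO, -3.59 ± 0.68 in WT) and the myeloid Itgam (-2.47 ± 0.49 in KO, -2.64 ± 0.53 in WT) were lower, and their part in the results was not tested.

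Cd247 had 1869, 1719, 1863 and 1736 in Treg WT, against 2905, 2811 and 2736 in Tconv WT (-0.65 ± 0.068, adjusted p = 6.6e-06). Cd4 had 4853, 4758, 4706 and 4886 in Treg WT and 8065, 8072 and 7586 in Tconv WT (-0.72 ± 0.096, adjusted p = 6.6e-05). Both were lower in every Treg WT library, whereas Cd3g, Cd3d and Cd3e differed by -0.014 ± 0.082, -0.038 ± 0.093 and 0.095 ± 0.10 and did not pass. Stim1 had 649, 652, 672 and 630.3 in Treg WT and 1030.4, 1027 and 953 in Tconv WT (-0.62 ± 0.078, adjusted p = 3.7e-05). Itpr1 had 641, 652, 634 and 600.2 in Treg WT and 967, 856 and 913 in Tconv WT (-0.53 ± 0.085, adjusted p = 3.4e-04). These are the proteins that empty and sense the calcium store, and the groups did not overlap for either. The phosphatase gene Ptpn6 (SHP-1) had 1575, 1506, 1504 and 1408 in Treg WT and 2193, 2285 and 2146 in Tconv WT (-0.56 ± 0.072, adjusted p = 5.1e-05). Pag1, the membrane anchor of Csk, had 923, 840.1, 949.8 and 869 in Treg WT and 1639.6, 1585 and 1564 in Tconv WT (-0.83 ± 0.14, adjusted p = 5.5e-04). Lat had 3498, 3266, 3304 and 3088 in Treg WT and 4057, 4402 and 4741 in Tconv WT (-0.42 ± 0.10, adjusted p = 0.0080). All 3 were lower in every Treg WT library than in any Tconv WT library.

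Of the Tec family, Tec had 71.3, 60.7, 74.5 and 73.6 in Treg WT and 108, 95.4 and 109 in Tconv WT (-0.57 ± 0.13, adjusted p = 0.0046), a call that ended with reads thinned to 1 depth (0.13, range 6.3e-04 to 0.13). Txk had 343, 279, 371 and 380.3 in Treg WT and 718, 641 and 711 in Tconv WT (-1.01 ± 0.30, adjusted p = 0.029), and its call ended without any 1 of the Tconv WT libraries or without Treg WT replicate 1 or 2 (up to 0.096). On the other side, Vav3 had 189, 226, 213 and 202 in Treg WT and 110.3, 143 and 131 in Tconv WT (0.70 ± 0.14, adjusted p = 0.0022). Sla had 1921, 2113, 2084 and 1889 in Treg WT and 1461, 1509 and 1456 in Tconv WT (0.44 ± 0.10, adjusted p = 0.0055). Both were higher in every Treg WT library. The calcineurin subunit Ppp3ca also rose (0.53 ± 0.17, adjusted p = 0.035), a call lost with the GC or length trend removed, with thinned reads or without Tconv WT replicate 2 or 3 or Treg WT replicate 1, 3 or 4 (up to 0.18). The kinases Lck (-0.20 ± 0.090, adjusted p = 0.16) and Zap70 (-0.11 ± 0.18, adjusted p = 0.76) did not pass. Lck passed with the GC trend removed (-0.26, adjusted p = 0.019), with the length trend removed (-0.28, adjusted p = 0.030) and when the WT groups alone were fitted (adjusted p = 0.040), within a range of 0.019 to 0.40. The other 4 members that fell were Grap2, Plcg1, Sos1 and Nfatc3, with log2 fold changes between -0.58 (Grap2) and -0.20 (Plcg1). Their calls ended without Tconv WT replicate 1 (adjusted p = 0.083, 0.060 and 0.087 for Grap2, Sos1 and Nfatc3), and that of Plcg1 without any 1 of the Tconv WT libraries or Treg WT replicate 1, 2 or 4 (up to 0.13) and without the filter on low values, with quantile normalization or with thinned reads (up to 0.20). Those of Sos1 and Nfatc3 also ended without Tconv WT replicate 2, that of Nfatc3 with quantile normalization (0.057) and that of Grap2 without Tconv WT replicate 3.

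In KO animals 24 members passed between Treg and Tconv (50%, against 31.4% of all genes), 6 higher (15.8% of all genes) and 18 lower (15.6%), with 25 without both libraries of replicate 1, 25 without Treg KO replicate 3 and 14 in a fit of only the KO groups. This comparison shares no library with that in WT. Both take the spread of each gene from the same fit of all 15 libraries, however, so their calls are not independent. Passed in both were 13 members, 81.25% of the WT list and 54.2% of the KO list, and all 13 lay in the same direction, 11 lower and 2 higher (Sla and Vav3). Over all genes tested 1659 passed in both, 81.1% of the WT list and 46.6% of the KO list, and 1656 of them in the same direction. The signs of 43 of the 48 members (89.6%) were the same in both genotypes, and of 74.5% of all genes. Cd247 had 1858, 1915, 2152 and 1927 in Treg KO and 3143, 2886, 2870.4 and 2728 in Tconv KO (-0.57 ± 0.063, adjusted p = 8.8e-06). Stim1 had 696, 651, 549 and 617 in Treg KO and 1014, 1165, 1045 and 1105 in Tconv KO (-0.79 ± 0.072, adjusted p = 1.3e-06). Lat had 2031, 2338, 1616 and 2124 in Treg KO and 3340.4, 3351, 3631 and 3361 in Tconv KO (-0.77 ± 0.093, adjusted p = 1.9e-05). For these 3 no Treg KO library reached the lowest Tconv KO library. Txk showed the largest difference, with 118, 232, 246 and 359.7 in Treg KO and 369, 661, 704 and 881 in Tconv KO (-1.49 ± 0.28, adjusted p = 9.0e-04). In KO animals the kinases Lck (-0.37 ± 0.084, adjusted p = 0.0034), Csk (-0.41 ± 0.11, adjusted p = 0.013) and Zap70 (-0.52 ± 0.16, adjusted p = 0.024) passed as lower. In WT animals Csk did not pass (-0.20 ± 0.12, adjusted p = 0.32), but did with the GC trend removed (-0.34, adjusted p = 0.019) and when the WT groups alone were fitted (adjusted p = 0.016), and whether the cell type difference of these kinases differs between the genotypes is the interaction above, which none of them passed. The calls of Csk and Zap70 ended in a fit of only the KO groups, and that of Zap70 also without Tconv KO replicate 1 or replicate 3 or 4 of Treg KO (largest adjusted p 0.11). Itpr1, lower in Treg of WT animals, did not pass in KO animals (-0.12 ± 0.078, adjusted p = 0.24).

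**Figure D5:**
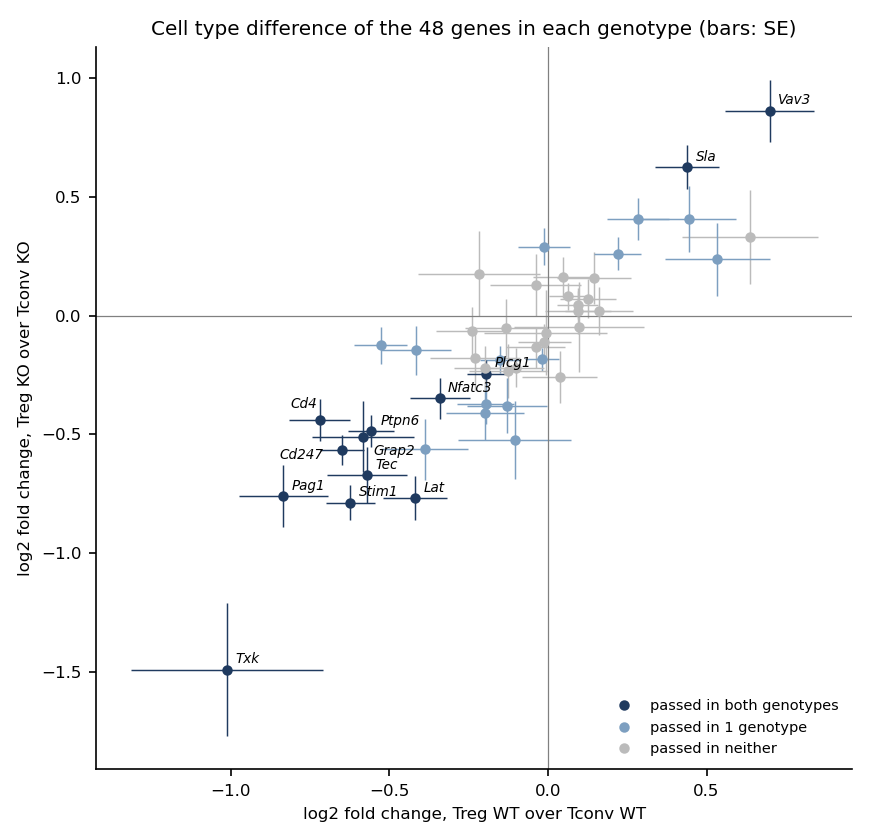
Log2 fold change of each member, Treg over Tconv, in KO animals (vertical axis) against WT animals (horizontal axis), with SE bars. Named points passed in both genotypes. The 11 named points at lower left and Sla and Vav3 at upper right share their direction, and Txk lies furthest from 0.

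Per kilobase of exon, with all annotated exons of a gene merged, Lck was the most abundant member in 3 of the 4 groups. Its mean level was 1647 normalized counts per kilobase in Treg KO and 1859 in Treg WT, and 2123 in Tconv KO and 2129 in Tconv WT, where Dgka stood higher at 2309. Cd4 had a mean level of 1542 in Treg KO and 1191 in Treg WT, and 2108 in Tconv KO and 1961 in Tconv WT. On this scale the least abundant member in Treg was Tec, at 17.3 in Treg KO and 18.7 in Treg WT, and in Tconv it was Vav3, at 21.1 in Tconv KO and 21.3 in Tconv WT. A single transcript can be shorter than the merged exons, so the order of the members depends on the length used. Ptprc, for example, averaged 14606 normalized counts in Treg KO, divided here by 18.3 kb of merged exon.

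A wider list of 75 tested genes of the same pathway, none of them a member, was read in the same fits. In Treg KO against Treg WT 19 passed (25.3%, against 21.5% of all genes), 8 higher and 11 lower, with 12 and 11 by DESeq2. With the GC trend removed 9 of the 75 passed, where 13.3% of all genes did, and 12 without Treg WT replicate 1 or without Treg WT replicate 4. The lower ones with the smallest p were Skap1, an adaptor of integrin activation (1030.5 ± 69.0 in Treg KO and 1385 ± 49.4 in Treg WT, -0.43 ± 0.068, adjusted p = 9.7e-04), the GTPase Rhoh (-0.47 ± 0.083, 0.0018), the kinase Akt2 (-0.50 ± 0.092, 0.0023) and the MAP kinase kinase Map2k2 (-0.74 ± 0.16, 0.0056). Among the higher ones were the costimulatory receptor Cd226 (606 ± 134 in Treg KO and 416 ± 39.4 in Treg WT, 0.52 ± 0.12, adjusted p = 0.0066), Tab2, a partner of the kinase Tak1 (0.33 ± 0.083, 0.013), and the GTPase Cdc42 (0.24 ± 0.066, 0.019). The call of Cdc42 ended once the GC trend was removed, when Treg alone were fitted, with thinned reads (adjusted p up to 0.63) and without Treg WT replicate 1 (0.057). In Tconv KO against Tconv WT and in the interaction 0 passed by limma, edgeR or DESeq2. An unadjusted p under 0.05 by limma was reached by 7 in each, and by 1358 and 963 of all 11314 genes tested.

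Between Treg WT and Tconv WT 23 of the 75 passed (30.7%, against 18.1% of all genes), 10 higher and 13 lower, and 40 when the WT groups alone were fitted. Vav2, a relative of Vav3, was higher (399 ± 13.95 in Treg WT and 69.4 ± 7.29 in Tconv WT, 2.51 ± 0.18, adjusted p = 1.6e-07), as were Rhoh (0.70 ± 0.090, 4.8e-05), the adhesion receptor Cd2 (0.70 ± 0.094, 6.8e-05) and the lipid phosphatase Inpp5d (0.39 ± 0.067, 6.0e-04). Themis, a TCR signalling protein of thymocytes, was lower (247 ± 12.5 in Treg WT and 1070.2 ± 109.7 in Tconv WT, -2.11 ± 0.11, adjusted p = 4.8e-09), as were the calcium channel Orai2 (-0.80 ± 0.11, 1.0e-04) and the adaptor Sit1 (-0.71 ± 0.14, 0.0017). In KO animals 39 of the 75 passed (52%, against 31.4% of all genes), 18 higher and 21 lower, and 25 in a fit of only the KO groups.

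Of 24 tested genes that TCR signals induce or repress, 2 passed in Treg KO against Treg WT (8.33%, against 21.5% of all genes), 3 by edgeR and 4 by DESeq2. The adhesion receptor Cd44 rose (1209 ± 121 in Treg KO and 803 ± 23.9 in Treg WT, 0.59 ± 0.17, adjusted p = 0.026) and the phosphatase Dusp2 fell (869.7 ± 79.4 in Treg KO and 1217 ± 99.3 in Treg WT, -0.49 ± 0.10, adjusted p = 0.0058). Neither passed once the GC trend was removed (adjusted p = 0.091 and 0.70), and Cd44 also did not pass without any single library of Treg WT, or without Treg KO replicate 1 or 3 (up to 0.062). In Tconv 0 passed by limma, edgeR or DESeq2, and 0 had an unadjusted p under 0.05 by limma, where 1358 of all 11314 genes did. Between Treg WT and Tconv WT 9 passed (37.5%, against 18.1% of all genes), 7 higher, among them Tnfrsf9 (3.60 ± 0.35, adjusted p = 3.0e-06) and the immediate early gene Nr4a1 (0.79 ± 0.14, adjusted p = 8.8e-04), and 2 lower, Il2 (-3.31 ± 0.52, adjusted p = 2.7e-04) and Tbx21 (-1.37 ± 0.28, adjusted p = 0.0022). In WT animals Il2 was low in both cell types, at 0.344 ± 0.397 in Treg and 12.1 ± 2.42 in Tconv. Between Treg KO and Tconv KO 15 passed (62.5%, against 31.4% of all genes), 11 higher and 4 lower. Ctla4, among the higher ones in both genotypes, was also listed as a marker of Treg (2.97 ± 0.31 in WT, 2.99 ± 0.28 in KO).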

How the data were processed

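RNA from sorted spleen T cells had been made into libraries with a TruSeq RNA kit, which does not mark strand, per the labels' protocols. Reads were aligned with TopHat to mm10, per the submitters' processing notes. No source used here names the read counter or its annotation. The authors deposited 1 table of normalized values (a signal of reads per gene divided by 1 factor per library, read from the values themselves). Whole reads were recovered from 100% of the values within a tolerance of 0.001, and edgeR on those reads called 2444 genes, 16 of them members, in Treg KO against Treg WT. From the deposited values, log2(value + 1) was tested with limma 3.58.1 (trend, R 4.3.3) in 1 fit of 4 group means, for the 11314 genes with at least 10 in at least 3 libraries. Tests were two-sided, with Benjamini-Hochberg adjustment over all genes and a threshold of 0.05, and a fold change on this scale understates that of low genes. As alternatives edgeR 4.0.16 and DESeq2 1.42.0 were run on the recovered reads, other pseudocounts (8 and 0.1), filters and scalings, removal of GC and length trends, reads thinned to 2635841 a library, a replicate block, and each library left out. The fit was checked on simulated data.

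Gene positions, exon lengths and GC content came from GENCODE vM21 (GRCm38), to which 16652 symbols and 695 older symbols were matched. Promoters are from RefSeq. Named in full are the members that passed between the genotypes, the 10 with the smallest p between Treg WT and Tconv WT, the receptor chains, Cd4, Lck and Zap70, and up to 4 genes per direction of the wider list by smallest p, while genes of the TCR response list were picked after their values were seen. Some genes that this rule would name are not reported here. The members and lists were chosen with earlier results of these data known. Nothing in the labels says that the libraries of a group came from separate animals. The p-values therefore measure only the spread between these samples, which may be technical. In the tests reported first that spread is 1 estimate per gene shared by all 4 groups. KO libraries varied more in the members (SD 0.081 to 0.27) than WT libraries did (0.057 to 0.089). Neighbouring sample numbers could not be shown to mark 1 animal, so no block entered the tests reported first. Groups were taken from the sample titles.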

Additional observations from a re-analysis of the deposited data

Results flagged for a closer look

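In 144 groups of 4 libraries (the 48 members in Treg KO, Treg WT and Tconv KO), 5 had 1 library whose gap to the nearest other, as a share of the range of the group, passed Dixon's 95% limit. Chance alone would flag about 1 in 20 groups. Lat in Tconv KO replicate 3 was at 3631, with the others at 3340 to 3361 (share 0.928). Nck1 in Treg KO replicate 3 was at 304, with the others at 254 to 259.7 (share 0.888). Vav1 in Treg WT replicate 4 was at 1476, with the others at 1633 to 1648 (share 0.911). Ptprc in Tconv KO replicate 2 was at 16132, with the others at 17062 to 17217 (share 0.857). Ppp3cb in Treg KO replicate 3 was at 950.1, with the others at 712 to 746 (share 0.857). Vav1 passed in Treg KO against Treg WT with that library in the fit and also without it.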

How the results depend on the processing

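Of the 48 members 16 passed in Treg KO against Treg WT, where 21.5% of all genes did. With the GC trend removed 7 passed, where 13.3% of all genes did. Leaving out 1 library at a time gave 7 to 18, with 7 without Treg WT replicate 1, 8 without Treg WT replicate 4, 9 without Treg KO replicate 1 or 3 and 10 without Treg WT replicate 2. With the GC trend removed the log2 fold changes of Csk (0.075), Was (0.040) and Dgkz (0.035) lay above 0 without passing, and that of Ppp3cb was -0.18 and passed. In Tconv KO against Tconv WT 0 members passed, against 1 by edgeR, 3 by DESeq2, 1 with quantile normalization and 1 with the replicate block of neighbouring sample numbers, and 0 to 3 with 1 library left out (3 without Treg KO replicate 3, 1 without Tconv KO replicate 4). In Treg WT against Tconv WT, 16 passed and 27 in a fit of only the groups compared (11 to 21 with 1 library left out), and in Treg KO against Tconv KO 24 and 14 (21 to 25). Of the wider list, 19 passed in Treg KO against Treg WT, 9 with the GC trend removed and 12 to 24 with 1 library or the 2 KO libraries of replicate 1 left out, 12 each without Treg WT replicate 1 or 4. In Tconv its count was 0 (0 to 1, 1 without Treg KO replicate 3), and in a fit of only the groups compared it was 40 in place of 23 in WT animals and 25 in place of 39 in KO animals. The cause of these shifts was not tested. Under the replicate block 16 members passed in Treg KO against Treg WT, 0 in the interaction, 21 in Treg WT against Tconv WT and 27 in Treg KO against Tconv KO. Treg KO libraries held 2.64 to 4.71 M reads and Treg WT libraries 6.43 to 10.0 M reads, without overlap. Tconv KO libraries held 2.95 to 10.3 M reads and Tconv WT libraries 6.60 to 11.1 M reads. Such depth limits low genes in the shallower libraries.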
